A study of Mus musculus with 18 samples.

Results

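Collagens are the main structural proteins of the extracellular matrix, and the genes that encode their chains were followed here through the day in the wall of the mouse distal colon. The 42 collagen genes were all genes with a symbol of the form Col, number, a, number and with a probe set assigned to that symbol alone, out of 18193 genes so defined on the array. Total RNA of colon from just above the anus was hybridised to Affymetrix MOE430 2.0 arrays, which measure each transcript with sets of short probes. Colon was collected at 8am, 12pm, 4pm, 8pm, 12am and 4am, and each collection time had 3 arrays with the letters a, b and c. Those times lay 1, 5, 9, 13, 17 and 21 h after lights on. All mice were kept for 2 weeks under 12 h light and 12 h dark, with food at all times, and no treatment or genetic change distinguished the groups. Strain, age and sex are not given in the sources used here, nor is it stated whether each array had its own animal, so p-values measure the spread between these arrays.

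A collagen molecule is a rope of chains wound round each other, and cells must make the right chains together to build it. Fibrillar collagens such as types I, III and V form the tensile fibres of the submucosa, type IV forms the sheet of the basement membrane under epithelium and around muscle and vessels, and type VI forms beaded filaments close to cells. Other collagens bind to fibre surfaces, anchor the basement membrane or span the cell membrane. In the gut wall they come mostly from fibroblasts and smooth muscle cells, with type IV also from endothelium and epithelium. In RNA of a whole tissue, fewer cells of a type and less RNA per cell cannot be told apart.

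All 10 of 10 epithelium markers and all 10 of 10 smooth muscle markers lay above the expression filter. So did 8 of 8 endothelium, 10 of 12 fibroblast, 6 of 7 enteric neuron and glia, 4 of 6 adipose tissue and 3 of 5 mesothelium markers. Of cartilage and bone markers 6 of 8 lay above it, beside 3 of 7 of squamous epithelium and 2 of 8 of skeletal muscle. Markers above the filter thus do not by themselves identify the tissue. RNA quality was uneven. Gapdh control probes near the 3′ end of the transcript were set against those near its 5′ end, a ratio that rises when RNA is broken. This Gapdh ratio reached 34.3 for array 4pm b, 36.0 for 4am a, 18.2 for 4am b and 2.33 for 4pm c, while the other 14 arrays lay between 0.746 and 1.12. The same ratio for Actb was 4.99, 55.4, 16.6 and 1.80 in that order, against 1.14 to 1.29 elsewhere. Calls at 4pm and 4am are therefore also given without 4pm b, 4am a and 4am b.

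Signals are in the linear units of the deposited table, where each array has the same trimmed mean of 500. Collagens ranged over this whole scale. The 28 genes with a mean log2(signal + 16) of at least 7.10, the 40th percentile of all probe sets, were tested for change, and the other 14 were not. Col19a1 lay just inside that limit at a mean log2 of 7.14 and Col20a1 just outside it at 6.92. By class, 7 of 11 fibrillar genes, 5 of 6 genes of the basement membrane network, 4 of 5 beaded filament genes, 6 of 9 fibril-associated genes, 2 of 3 genes of short-chain networks, both of 2 multiplexins (basement membrane collagens with interrupted helices), 1 of 4 transmembrane collagens and the anchoring fibril gene Col7a1 were tested.

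Among the tested genes, mean signals ran from 139 for Col19a1 to 11975 for Col3a1. Different probe sets bind with different strength, so the rank of a probe set among all probe sets says only roughly how abundant a transcript is. On that scale Col3a1, the sole chain of type III, stood at percentile 99.4, Col1a2 of type I at 98.1, Col4a1 of the basement membrane at 97.3, and the type VI chains Col6a1 and Col6a2 at 96.5 and 96.2. The 14 untested genes were Col2a1, Col11a1, Col11a2, Col24a1, Col4a4, Col6a5, Col9a2, Col9a3, Col10a1, Col13a1, Col17a1, Col20a1, Col25a1 and Col26a1. They include Col2a1, Col9a2, Col9a3, Col10a1, Col11a1 and Col11a2, known for cartilage. Col9a1, of the same type as Col9a2 and Col9a3, was tested, with a mean signal of 289 at percentile 60.7. As 6 of 8 cartilage and bone markers also lay above the filter, genes of cartilage were not low as a group. Mean signals of the 14 untested genes lay between 17.1 and 117. On their probe sets of highest mean, the highest value of any of the 14 in any array was 253. The deposited table holds no detection calls, so whether such low signals differ from no expression is not known here.

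Time means of the collagens lay apart by different amounts. The gap between the highest and the lowest time mean on the log2 scale was smallest for Col8a2 (0.36), Col3a1 (0.42), Col6a1 (0.48) and Col6a2 (0.53). It was largest for Col22a1 (1.63), Col27a1 (1.46), Col5a2 (1.42) and Col4a5 (1.40). Such gaps also hold the spread between arrays of the same time. The SD within times was 0.29, 0.34, 0.26 and 0.35 for the genes of smallest gap, in the order named. For those of largest gap it was 0.35, 0.73, 0.42 and 0.48. Among the genes named here, Col22a1 and Col4a5 alone passed the test over the 6 times given below. In 16 of 28 genes the lowest time mean was at 8am, in 4 at 8pm and in none at 4pm, while 10 genes peaked at 4pm, 7 at 4am and 7 at 12am. Such counts were not made for all genes, so they are not read as particular to collagens.

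**Figure D1:**
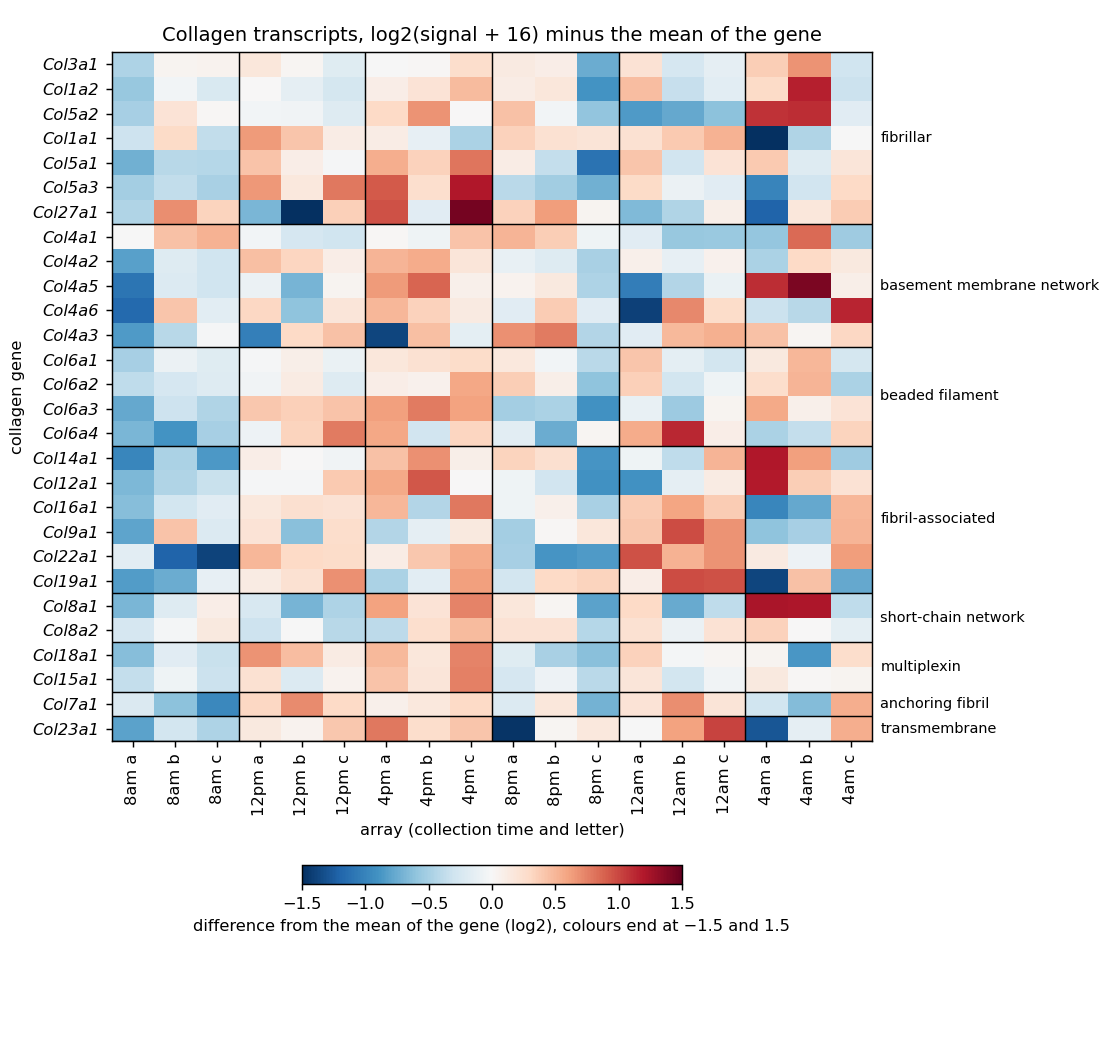
Heat map of the 28 tested collagen genes (rows, grouped by class) in 18 arrays (columns, grouped by collection time); colour gives the deviation of log2(signal + 16) from the gene's own mean, with the colour scale ending at −1.5 and 1.5. In 16 of the 28 genes the lowest time mean is at 8am, a count not made for all genes. Array 4am a differs from 4am c in many genes.

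The question of the study was which colon transcripts follow the day, and a curve with a period of 24 h called no collagen. None of 28 passed limma's adjusted p of 0.05 (0.0389% of all 12870 genes did), and unadjusted, 1 lay under 0.05 (3.93% of all genes). That gene was Col5a3, a minor fibrillar chain that joins type V fibrils, with a fitted log2 amplitude of 0.48 (SE 0.17), a peak 7.53 h after lights on and an unadjusted limma p of 0.034. The median fitted amplitude was 0.19 for collagens and 0.19 for all genes. Adding a curve of 12 h left the collagen count of this test at 0.

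Light against dark gave no call either. Averages over the 3 light times and over the 3 dark times differed in 0 of 28 collagens at a limma adjusted p under 0.05 (0% of all genes) and in 4 by the unadjusted p (6.21% of all genes). Those were Col5a3 (log2 difference 0.58), Col6a3 (0.37) and Col18a1 (0.34), higher in the light by value, and Col4a3 (−0.59), lower by value. Positive and negative differences were even, 14 and 14, and the median was 0.00. Without array 4am c, 1 collagen passed, Col5a3.

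Times 12 h apart were also compared directly, 3 arrays against 3. At 8am minus 8pm, 0 of 28 collagens passed limma's adjusted threshold (0.00777% of all genes) and 0 had an unadjusted p under 0.05 (2.86%). The median log2 difference was −0.11, against −0.03 for all genes. At 12pm minus 12am, 0 passed (0.0233% of all genes) and 1 had an unadjusted p under 0.05 (8.09%), Col6a3 with a log2 difference of 0.61 (SE 0.21). At 4pm minus 4am, 0 passed (0.0466% of all genes) and 2 had an unadjusted p under 0.05 (19.7%), Col5a3 with 1.12 (SE 0.30) and Col18a1 with 0.66. Both were higher at 4pm by value. Leaving out array 4am c, the 4am array with a low Gapdh ratio, gave 5 calls at 4pm minus 4am in place of 0.

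A test of any difference among the 6 times, whatever its shape, called 4 of 28 collagens at a limma adjusted p under 0.05 (17.0% of all genes were called) and 14 by the unadjusted p (42.4%). The share of collagens called was thus near that of all genes. The 4 were Col6a3, Col22a1, Col5a3 and Col4a5.

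Col6a3 encodes the longest chain of type VI collagen, which joins the a1 and a2 chains in 1 beaded filament. Its signals in arrays a, b and c were 1184, 1636 and 1474 (8am), 2689, 2599.9 and 2736 (12pm), 3119.5, 3495 and 3097 (4pm), 1413, 1451 and 1071 (8pm), 1872, 1384 and 2078 (12am) and 3008, 2136 and 2335 (4am). All 9 arrays of 8am, 8pm and 12am lay below all 9 of 12pm, 4pm and 4am. That split was chosen after the values were seen, and the share of all genes separate in this way was not computed, so it is a description. The mean log2 level fell to 10.36 ± 0.24 (SD, n = 3) at 8pm and was highest at 4pm, 11.67 ± 0.10 (SD, n = 3), and limma's adjusted p over the 6 times was 0.00436.

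Col22a1 encodes a fibril-associated collagen known from junctions between muscle and connective tissue. Signals were low and ran 161, 69.5 and 59.3 (8am), 264, 226 and 224 (12pm), 198, 245 and 274 (4pm), 124, 91.1 and 93.9 (8pm), 367, 267 and 298 (12am) and 201, 171 and 289.5 (4am). All 6 arrays of 8am and 8pm lay below all 12 arrays of the other times. Its mean log2 level was 6.71 ± 0.66 (SD, n = 3) at 8am and 8.34 ± 0.22 (SD, n = 3) at 12am, with a limma adjusted p of 0.00959. The 2 other Col22a1 probe sets lay below the expression filter.

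Col5a3 gave 324, 358 and 330.0 (8am), 739.8, 523 and 817 (12pm), 899, 558 and 1091 (4pm), 348, 321 and 276 (8pm), 572, 439 and 412 (12am) and 227, 381 and 577 (4am). The 8am and 8pm arrays were the tightest groups and lay at 358 or less, but array 4am a, at 227, was lower than all of them. Mean log2 levels were 8.36 ± 0.16 (SD, n = 3) at 8pm and 9.70 ± 0.49 (SD, n = 3) at 4pm, and limma's adjusted p was 0.0228.

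Col4a5 is a chain of the type IV networks found around smooth muscle and in some epithelial basement membranes. Its signals were 306, 578 and 541 (8am), 631, 407 and 690.2 (12pm), 1051, 1244 and 705 (4pm), 699, 744 and 480.0 (8pm), 318, 489 and 622 (12am) and 1463, 1809 and 715 (4am). The highest values were those of 4am a, 4am b, 4pm b and 4pm a, of which 4pm a alone had a low Gapdh ratio. The mean log2 level was 10.29 ± 0.69 (SD, n = 3) at 4am and 8.89 ± 0.48 (SD, n = 3) at 8am, with a limma adjusted p of 0.0399. Without 4pm b, 4am a and 4am b this call was lost, but 4am c was then the only array left at 4am. A second Col4a5 probe set had an r of 0.564 with the first. Its mean log2 level was 7.47 at 8am, 7.78 at 8pm and between 8.63 and 8.93 at the other times. Signals of that set were 126 to 269 in the 8am and 8pm arrays and 287 to 690 in the others, given as a description. Col6a3 and Col22a1 passed in every alternative in which they were tested (32 of 32 and 31 of 31). For Col22a1 that count has the limit given above, that it passed the filter through times other than 8am and 8pm. Col5a3 passed in 31 of 32 and Col4a5 in 13 of 32. The number of collagens called was 2 without array 4pm a and 16 without array 4am c. The share of all genes called in those fits is not given here, so these counts are not read as a result about collagens.

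**Figure D2:**
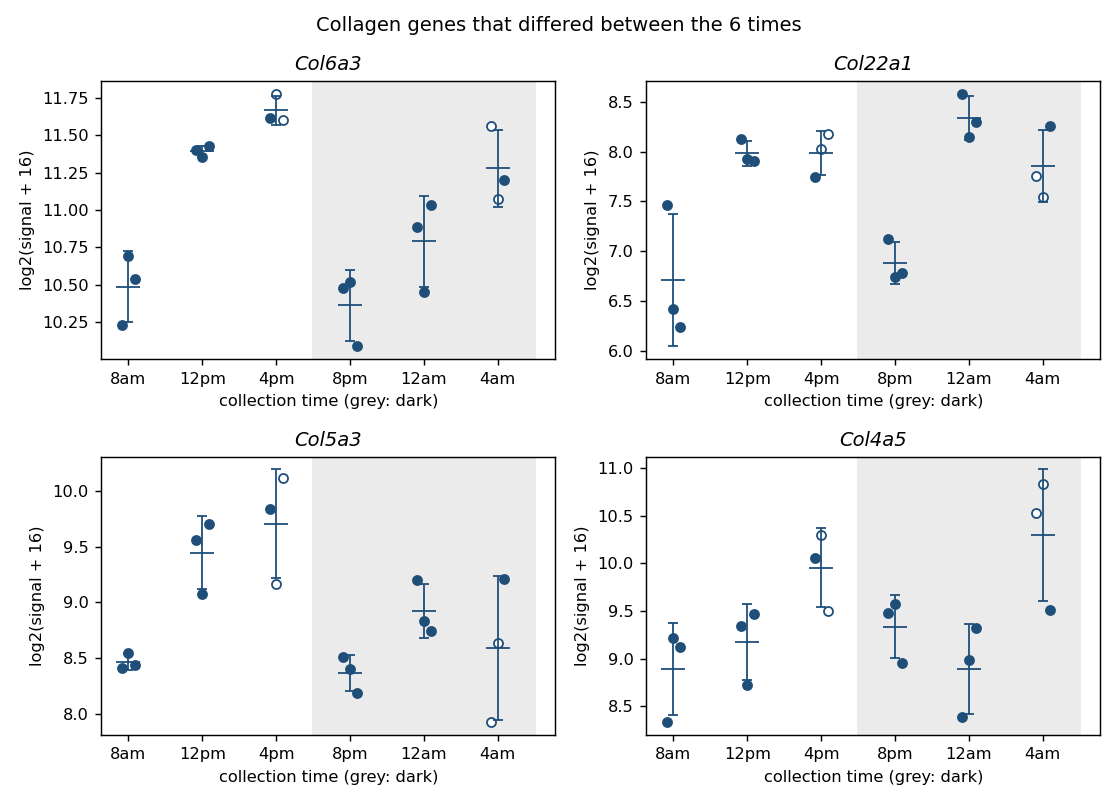
Log2(signal + 16) of Col6a3, Col22a1, Col5a3 and Col4a5 in each array (points) by collection time, with the mean ± SD of 3 arrays; grey marks the dark phase and open symbols mark arrays with a Gapdh 3′/5′ ratio above 2. The first 3 genes are low at both 8am and 8pm, and the highest Col4a5 points are open symbols.

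The lows at 8am and at 8pm lie 12 h apart, and each such pair of times was compared with the mean of the other 4 times. These comparisons were chosen with earlier results of these data known, and all of them use the same 18 arrays, so each is a description of where a gene was high or low rather than separate evidence. At 8am and 8pm, 9 of 28 collagens were lower and 0 higher at a limma adjusted p under 0.05. Of all genes 16.6% were called, 10.8% lower and 5.85% higher. By the unadjusted p 13 collagens lay under 0.05 (32.0% of all genes). By value, 25 of 28 collagens were lower, with a median log2 difference of −0.37 against −0.05 for all genes.

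The 9 genes came from most classes. They were the fibrillar chains Col5a1 and Col5a3, the type VI chains Col6a3 and Col6a4, the basement membrane chain Col4a2, the anchoring fibril chain Col7a1, the fibril-associated Col12a1 and Col22a1, and the multiplexin Col18a1, whose C-terminal fragment is endostatin. In each of the 9, all 6 arrays of 8am and 8pm lay below the median of the other 12 arrays. The same arrays gave the calls, and the share of all genes like this was not computed, so it is a description and not added support. On the probe sets of highest mean, only Col22a1 of the 28 had no overlap at all. Its log2 levels were 6.23 to 7.46 against 7.55 to 8.58 (1.42% of all genes were separate and lower). Its means at 8am (6.71) and 8pm (6.88), and that of Col6a4 at 8am (7.00), lay below the filter limit of 7.10. Col22a1 thus passed the filter through its levels at the other times, so its separation and its p-value below are given as a description. The log2 difference of Col22a1 was −1.25 (SE 0.19, limma adjusted p 0.000452), and that of Col6a3 was −0.86 (SE 0.13, limma adjusted p 0.000465).

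The 250 bases before the annotated start of some of these genes are printed to show what the members that were low together have in their promoters. Col6a3, Col5a3 and Col5a1 are shown as genes called lower at 8am and 8pm, and Col1a2 and Col3a1, which were not called there, as the pair of collagens whose levels ran most alike. Sequences are those of RefSeq, build GRCm38.p6, each 5′ to 3′ on the strand of the gene. These motifs were searched on both strands and are in capitals. CCAAT is the box bound by NF-Y. The letters TATAAA mark a core promoter element that positions the start. A box rich in G and C, GGGCGG or CCGCCC on the other strand, is bound by Sp factors. The E-box of clock factors was searched as CACGTG. No matches overlapped in the windows shown. Col6a3 lies at chr1:90843972-90844221 on the minus strand, Col5a3 at chr9:20815068-20815317 on the minus strand, Col5a1 at chr2:27886175-27886424 on the plus strand, Col1a2 at chr6:4505368-4505617 on the plus strand and Col3a1 at chr1:45311288-45311537 on the plus strand.
Col6a3: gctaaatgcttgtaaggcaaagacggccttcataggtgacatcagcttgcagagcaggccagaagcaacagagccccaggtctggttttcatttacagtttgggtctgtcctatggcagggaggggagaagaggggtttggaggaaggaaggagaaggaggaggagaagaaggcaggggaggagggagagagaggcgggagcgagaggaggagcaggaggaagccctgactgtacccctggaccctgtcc
Col5a3: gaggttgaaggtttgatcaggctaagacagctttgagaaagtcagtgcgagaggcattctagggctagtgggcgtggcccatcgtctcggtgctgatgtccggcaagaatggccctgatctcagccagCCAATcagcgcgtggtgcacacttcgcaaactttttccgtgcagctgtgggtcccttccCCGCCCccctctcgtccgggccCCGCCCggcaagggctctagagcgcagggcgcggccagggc
Col5a1: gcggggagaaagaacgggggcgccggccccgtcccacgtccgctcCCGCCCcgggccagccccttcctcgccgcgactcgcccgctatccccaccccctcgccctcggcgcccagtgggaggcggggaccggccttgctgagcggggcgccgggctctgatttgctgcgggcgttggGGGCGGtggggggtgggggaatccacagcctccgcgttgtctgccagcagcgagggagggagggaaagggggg
Col1a2: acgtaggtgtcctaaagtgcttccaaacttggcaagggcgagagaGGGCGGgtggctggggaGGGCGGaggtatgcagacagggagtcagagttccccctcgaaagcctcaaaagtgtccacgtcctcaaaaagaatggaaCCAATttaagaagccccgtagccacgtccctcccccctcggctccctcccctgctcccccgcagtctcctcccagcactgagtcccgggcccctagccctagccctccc
Col3a1: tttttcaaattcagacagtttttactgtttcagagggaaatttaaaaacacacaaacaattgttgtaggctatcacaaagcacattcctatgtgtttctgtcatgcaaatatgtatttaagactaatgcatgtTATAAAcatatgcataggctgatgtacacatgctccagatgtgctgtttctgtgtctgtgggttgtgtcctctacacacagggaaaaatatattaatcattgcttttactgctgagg

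The window of Col6a3 held none of the 4 motifs. Col5a3 and Col1a2 each held 1 CCAAT and 2 GGGCGG, Col5a1 held 2 GGGCGG, and Col3a1 held 1 TATAAA. RefSeq windows were at hand for 33 collagen genes, as 36 windows, of which 25 belonged to 22 tested genes. GGGCGG was in 21 of 36 collagen windows and in 32.7% of the 32851 windows of all genes. CCAAT was in 13 of 36 (33.8% of all windows), TATAAA in 5 of 36 (12.4%) and CACGTG in 0 of 36 (6.02%). A match is a run of letters and not a measured binding site, and a window without one says only that those letters are not in it.

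Of the fibrillar chains, Col5a1 and Col5a3 passed at 8am and 8pm. Type V collagen starts new fibrils and sets their width, and Col5a1 is a chain of nearly all type V molecules. Its signals were 610.1, 757 and 754 (8am), 1376, 1089 and 1005 (12pm), 1489, 1299.9 and 1783 (4pm), 1096, 793 and 465 (8pm), 1363, 828 and 1175 (12am) and 1339, 886 and 1155 (4am). The 8am and 8pm arrays were lowest on the whole, although 8pm a (1096) exceeded 4 arrays of 12pm, 12am and 4am. The log2 difference was −0.73 (SE 0.17, limma adjusted p 0.0099), and that of Col5a3 was −0.75 (SE 0.18, limma adjusted p 0.0117).

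In the basement membrane, Col4a2 gave 784, 1214 and 1129 (8am), 1901, 1739 and 1494 (12pm), 1981, 2050.0 and 1574 (4pm), 1282, 1213 and 991 (8pm), 1466, 1276 and 1453 (12am) and 993, 1713 and 1536 (4am). Arrays of 8am and 8pm lay at 1282 or less, and among the other 12 only 12am b and 4am a reached that range. Its log2 difference was −0.52 (SE 0.14, limma adjusted p 0.0205). Col18a1 gave 385, 538 and 477 (8am), 978, 839 and 661 (12pm), 859, 687 and 1023 (4pm), 535, 428 and 387 (8pm), 773, 594 and 619.9 (12am) and 625, 325 and 729 (4am). All 6 arrays of 8am and 8pm lay at 538 or less, and array 4am b, at 325, was lower than all of them. The log2 difference was −0.61 (SE 0.17, limma adjusted p 0.0216).

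Col12a1, a fibril-associated collagen of dense connective tissue, gave 461, 538 and 589 (8am), 734, 738 and 984 (12pm), 1108, 1435 and 749 (4pm), 711, 606 and 388 (8pm), 390.3, 676 and 813 (12am) and 1722, 963 and 865 (4am). Its 8am and 8pm arrays lay between 388 and 711 and overlapped the others through 12am a and 12am b. The log2 difference was −0.68 (SE 0.20, limma adjusted p 0.0281). A second Col12a1 probe set above the filter had an r of −0.025 with this one over 18 arrays. Its mean log2 level was 7.76 at 8am and 7.61 at 8pm, and between 7.14 and 8.09 at the other times. That set had the opposite sign here and at 4pm and 4am, so both calls of Col12a1 belong to 1 probe set. Col6a4 (−0.74, limma adjusted p 0.023) and Col7a1 (−0.64, limma adjusted p 0.034) were the other calls. Just short of the threshold were Col15a1 (−0.37, limma adjusted p 0.0519), Col14a1 (−0.65, 0.0665) and Col23a1 (−0.70, 0.0858). The only positive differences by value were those of Col4a1 (0.44), Col27a1 (0.40) and Col1a1 (0.09).

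These calls depended in part on scaling and on single arrays. When every array was centred on its median, the median difference of all genes moved from −0.05 to 0.10 and that of collagens from −0.37 to −0.22, and 5 collagens passed, all lower: Col22a1, Col5a1, Col5a3, Col6a3 and Col6a4. Under that scaling 1292 genes were called higher and 693 lower, in place of 753 and 1385. Without array 8am a, and likewise without 8pm c, 5 collagens passed. Col6a3, Col5a1 and Col5a3 passed in all 32 alternatives and Col22a1 in all 31 in which it was tested, with log2 differences between −1.44 and −0.56. Without the 3 arrays of high Gapdh ratio, the median log2 difference was −0.39 for collagens and −0.07 for all genes. Collagen calls in that fit were mostly but not all lower. They are not counted here, as a collection time was then left with a single array.

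Markers of the cell types that the samples could hold were read at 8am and 8pm too, beside the 10.8% of all genes called lower there and the 5.85% called higher. Of 10 epithelium markers 4 were higher (Car1, Epcam, Krt19 and Krt8), and the summed signal of that list was 134147 to 154771 in the 8am and 8pm arrays and 95834 to 141917 in the others. Of 10 fibroblast markers 1 was lower, Pdgfrb (−0.79), with sums of 17432 to 30125 against 18867 to 48229. No smooth muscle marker of 10 passed in limma, with 1 at an unadjusted p under 0.05 and sums of 54665 to 87868 against 31734 to 91299. Of 8 endothelium markers 1 was lower, Tek (−0.77), with sums of 1785 to 2402 against 1715 to 3305. Of 6 cartilage and bone markers 2 were lower, Ibsp (−1.36) and Comp (−0.82), with sums of 897 to 1427 against 1121 to 2949. Krt14 of squamous epithelium (1 of 3 markers, −0.86) and S100b of enteric glia (1 of 6, −0.72) were lower too. Adipose tissue, mesothelium and skeletal muscle had no limma call among 4, 3 and 2 markers, and 0 at an unadjusted p under 0.05. In each list with sums given here the ranges overlapped. For epithelium the overlap came through array 4am b (141917) alone, and the other arrays outside 8am and 8pm lay at 132401 or less. No marker was at 0, and the lowest mean signal of any was 19.8. Their part in the collagen result was not tested.

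At 4pm and 4am most of the collagens that passed were higher. Against the other 4 times, 7 of 28 were higher and 1 lower at a limma adjusted p under 0.05. Of all genes 25.1% were called, 13.4% higher and 11.7% lower. By the unadjusted p 11 collagens lay under 0.05 (40.3% of all genes). By value 23 of 28 were positive, with a median log2 difference of 0.28 against 0.02 for all genes. The higher genes were Col4a5 (1.05, SE 0.22, limma adjusted p 0.00696), Col8a1 (0.90), Col12a1 (0.82), Col5a2 (0.75), Col6a3 (0.71, SE 0.13, limma adjusted p 0.00393), Col5a1 (0.52) and Col15a1 (0.39). Col1a1 was lower (−0.67, SE 0.20, limma adjusted p 0.0264).

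Col5a2, the partner chain of Col5a1 in type V collagen, gave 1150.4, 1882 and 1659 (8am), 1593, 1578 and 1434 (12pm), 2011, 2615 and 1638 (4pm), 2228, 1586 and 1076 (8pm), 901, 951 and 1065 (12am) and 3498, 3531 and 1452 (4am). Arrays 4am a and 4am b stood above all others, and 4am c lay inside the range of the remaining times. The log2 difference was 0.75 (SE 0.20, limma adjusted p 0.0169). Col8a1, a chain of a short-chain network found in vessel walls, gave 253, 363 and 449 (8am), 352, 250.2 and 298 (12pm), 642, 482 and 712 (4pm), 473, 428 and 232 (8pm), 515, 241 and 317 (12am) and 997, 990.0 and 318 (4am). Again 4am a and 4am b were highest, and 4am c, at 318, was not above the range of 8am. Its log2 difference was 0.90 (SE 0.24, limma adjusted p 0.0173). A second Col8a1 probe set above the filter had an r of 0.122 with this one over 18 arrays. The mean log2 level of that set was 8.93 at 4pm and 8.57 at 4am but highest at 12am, 9.14, so the call belongs to 1 probe set.

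Most of these calls were lost without the arrays of high Gapdh ratio, but that leaves 4am c alone at 4am. The log2 differences of Col5a1 and Col15a1 then rose, and those of the other genes called weakened. Loss of a call through fewer arrays and through RNA quality cannot be told apart in that fit. Without 4pm b, 4am a and 4am b, 2 collagens passed, Col6a3 (0.65, limma adjusted p 0.0277) and Col5a3, and 3.16% of all genes did. Col4a5 then stood at 0.57 (limma adjusted p 0.191), Col8a1 at 0.45 (0.315), Col12a1 at 0.52 (0.190), Col5a1 at 0.60 (0.125), Col15a1 at 0.45 (0.111), Col5a2 at 0.24 (0.495) and Col1a1 at −0.32 (0.287). With the Gapdh ratio as a covariate 0 collagens passed (0.109% of all genes). Without array 4am a 4 collagens passed, without 4pm b or without 4pm c 5, and without 4am c, which leaves 4am with its high-ratio arrays, 13. Median centring moved the median of all genes from 0.02 to 0.17 and that of collagens from 0.28 to 0.43, and gave 12, with 2320 genes called higher and 1132 lower in place of 1724 and 1503. Beyond those fits the part of RNA quality in the result was not tested.

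Cell type markers were called at 4pm and 4am as well, where 25.1% of all genes were. Of 10 fibroblast markers 2 were higher, Pdgfra (1.25) and Pdgfrb (0.83), and of 10 epithelium markers 2 were lower, Krt19 (−1.07) and Aqp8 (−0.85). Of 8 endothelium markers Pecam1 (−1.28) and Eng (−1.09) were lower and Tek (0.76) was higher. Cnn1 of smooth muscle (1 of 10, −1.27), Acta1 of skeletal muscle (1 of 2, −0.98) and Uchl1 of enteric neurons (−0.95) were lower, and Ret of enteric neurons (0.63) was higher. The other marker lists had no call. Summed adipose markers reached 18412 in 4am a and at most 8024 elsewhere. Without 4pm b, 4am a and 4am b, Pdgfra (0.77, limma adjusted p 0.0455) and Krt19 (−0.49, limma adjusted p 0.036) were the 2 markers that passed. The part of the markers in the collagen result was not tested.

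At 12pm and 12am collagens moved both ways. Of 28, 3 were higher and 1 lower at a limma adjusted p under 0.05. Of all genes 14.0% were called, 7.21% higher and 6.74% lower. By the unadjusted p 14 collagens lay under 0.05 (34.0% of all genes). The median log2 difference was 0.08 against 0.06 for all genes. Col22a1 (0.81, SE 0.19, limma adjusted p 0.0142), Col6a4 (0.71, limma adjusted p 0.0336) and Col7a1 (0.60, limma adjusted p 0.048) were higher, and Col5a2 (−0.63, SE 0.20, limma adjusted p 0.0455) was lower. The value of Col22a1 is again a description, since it passed the filter through times other than 8am and 8pm. Under quantile normalization 2 passed, Col1a1 and Col27a1, and under median centring 5, with 273 genes called higher and 2883 lower in place of 928 and 868. That centring moved the median of all genes from 0.06 to −0.23 and that of collagens from 0.08 to −0.21. Of the markers, beside the 14.0% of all genes called, 3 of 6 of cartilage and bone were higher at these times, Ibsp (1.05), Comp (0.82) and Matn3 (0.64), as were Krt14 (0.78, 1 of 3), Tie1 of endothelium (1.24, 1 of 8), Gfap of enteric glia (0.63, 1 of 6) and Fbln1 of fibroblasts (1.05, 1 of 10). None was lower, and the part of these markers in the result was not tested.

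Leaving out single arrays changed this count in most cases. A single call was left without 8am b, 12pm b, 12pm c, 4pm b or 12am b. A count of 2 was left without 8am c, 12pm a, 4pm a, 8pm a, 8pm b, 12am a or 12am c, and 14 were called without 4am c. Without the 3 arrays of high Gapdh ratio 2 collagens passed. Col22a1 passed in 28 of 31 alternatives and Col5a2 in 12 of 32.

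**Figure D3:**
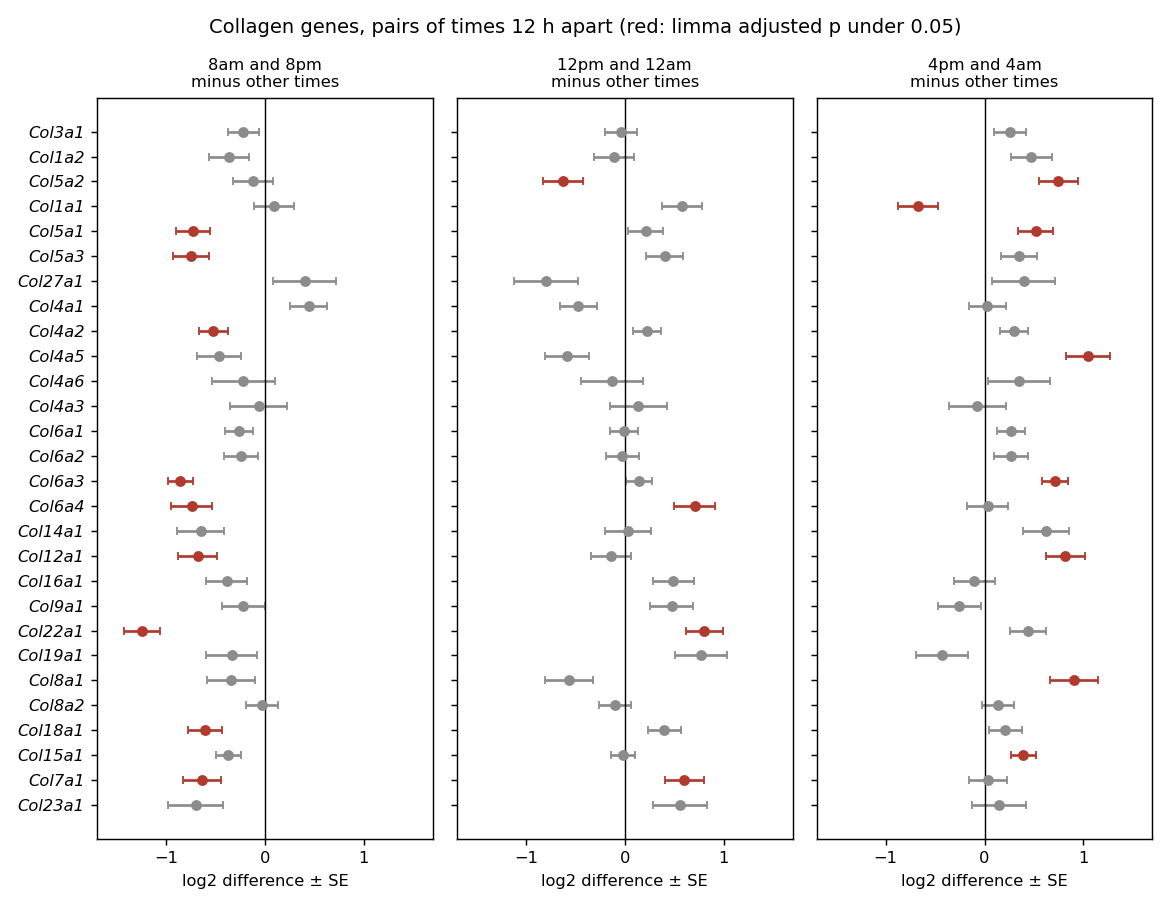
Log2 difference ± SE of each of the 28 tested collagen genes between a pair of times 12 h apart and the other 4 times, for 8am and 8pm, 12pm and 12am, and 4pm and 4am; red marks a limma adjusted p under 0.05. Most points lie left of 0 for 8am and 8pm and right of 0 for 4pm and 4am.

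Of the main fibre chains, Col1a2 and Col3a1 passed none of these tests on the probe set of highest mean, and Col1a1 passed only at 4pm and 4am. Col1a2, which joins Col1a1 in type I collagen, gave 3843, 5567 and 4874 (8am), 5738, 5218 and 4745 (12pm), 6108, 6576 and 7947 (4pm), 6162, 6428 and 3074 (8pm), 7853, 4481 and 5109.8 (12am) and 6992, 12809 and 4562 (4am). Col3a1 gave 8475, 12016 and 12175 (8am), 13155, 11975 and 10303 (12pm), 11651, 11878 and 14096 (4pm), 12900.1, 12514 and 6969 (8pm), 13586, 9798 and 10682 (12am) and 15171, 18719 and 9489 (4am). In both genes 4am b was highest and 8pm c lowest, and the time groups overlapped. Further probe sets of both genes, tested in the fit of all probe sets, did pass. A Col1a2 probe set was lower at 12pm and 12am (−0.98, limma adjusted p 0.0261) and another lower at 8am and 8pm (−0.88, limma adjusted p 0.0157). A Col3a1 probe set was higher at 4pm and 4am (1.13, limma adjusted p 0.00953). A miss of the threshold does not show that these chains were constant.

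The type VI chains Col6a1 and Col6a2 passed none of the tests on their probe sets of highest mean either, whereas Col6a3 did. Signals of Col6a1 were 2497, 3343 and 3116 (8am), 3505, 3778 and 3316 (12pm), 3994, 4156 and 4299 (4pm), 3968, 3430.2 and 2679.5 (8pm), 4727, 3211 and 2920.5 (12am) and 3929, 5016 and 2956 (4am). Those of Col6a2 were 2530.3, 2779 and 2889 (8am), 3189, 3615 and 2905 (12pm), 3556, 3475 and 4975 (4pm), 4297, 3534 and 2172 (8pm), 4263, 2729 and 3164 (12am) and 3990.1, 4725 and 2380.3 (4am). The time groups overlapped in both, and the lowest array was 8am a for Col6a1 and 8pm c for Col6a2. Whether Col6a3 changed more than its partners was not tested.

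Several collagens had more than 1 probe set above the filter, and these did not always move together. Probe sets of 1 gene can bind different ends or forms of its transcripts, and their positions were not used here. Of the 13 genes with several such probe sets, 5 had probe sets of opposite sign at 8am and 8pm (Col1a1, Col1a2, Col4a1, Col12a1 and Col27a1), 8 at 12pm and 12am, and 5 at 4pm and 4am (Col1a1, Col5a1, Col12a1, Col14a1 and Col18a1).

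Col1a1 was the clearest case. The probe set with the highest mean gave 1237, 1885 and 1194 (8am), 2406, 2068 and 1661 (12pm), 1661, 1412 and 1106 (4pm), 1966, 1808 and 1773 (8pm), 1811, 2034 and 2219.8 (12am) and 455, 1124 and 1538 (4am). The other gave 701, 593 and 700.1 (8am), 730.1, 955 and 565 (12pm), 795, 1103 and 1398 (4pm), 1164, 956 and 547 (8pm), 756, 413 and 689 (12am) and 1518, 1145 and 584 (4am). The first was lowest in 4am a and the other highest there. The other minus the first, as a log2 difference, was 1.71 in 4am a, 0.33 in 4pm c, 0.03 in 4am b and −0.35 in 4pm b. In the 14 arrays of lower Gapdh ratio it was between −2.25 and −0.75, and over 18 arrays their log2 levels had an r of −0.567 (−0.240 in the 15 arrays left without 4pm b, 4am a and 4am b). At 4pm and 4am their log2 differences were −0.67 and 0.55, so the lower call of Col1a1 belongs to 1 of its probe sets. Within the 4am arrays, 4am a minus 4am c was −1.72 for the first and 1.35 for the other.

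For Col5a1, the probe set used above and a second one ran together, with an r of 0.922 over 18 arrays, and the other was also lower at 8am and 8pm (−0.76, limma adjusted p 0.00183 among all probe sets). The third had an r of 0.170, or 0.664 in the 15 arrays. Its signal was 81.5 in 4pm b, 29.4 in 4am a and 33.1 in 4am b, and between 135 and 738 in every other array. Its log2 difference was −1.04 at 4pm and 4am, where the first was 0.52. Its 3 lowest values thus lay in the 3 arrays with the highest Gapdh ratios.

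Col4a1, the partner of Col4a2 in the main type IV network, had the reverse sign of Col4a2 at 8am and 8pm. Its probe set of highest mean gave 4412, 5996 and 6375 (8am), 4311, 3704 and 3585 (12pm), 4481, 4227 and 5973 (4pm), 6323, 5734 and 4215 (8pm), 3937, 2971 and 3015 (12am) and 2948, 7982 and 3051 (4am). The highest values were in 4am b (7982), 8am c (6375) and 8pm a (6323), and the arrays of 8am and 8pm (4215 to 6375) overlapped those of the other times through 4pm a, 4pm b, 4pm c, 12pm a and 4am b. The difference at 8am and 8pm was 0.44 (limma adjusted p 0.115). Its other probe set gave 890.0, 1213 and 935 (8am), 1817, 1478 and 1094 (12pm), 1795, 1140.0 and 1555 (4pm), 1066, 706 and 1265 (8pm), 661, 1859 and 1086 (12am) and 1280.5, 965 and 1199 (4am). In that set the 8am and 8pm arrays lay between 706 and 1265 and the others between 661 and 1859, and the r of the pair was −0.283. Probe sets of Col6a2 had an r of 0.745 and those of Col18a1 of 0.583.

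Over all 43 collagen probe sets above the filter, the arrays with high Gapdh ratios were set against an array of the same time. In the differences 4am a minus 4am c, 4am b minus 4am c and 4pm b minus 4pm a, 14 probe sets were higher in all 3, 11 were lower in all 3 and 18 were mixed. Extremes were the third Col5a1 probe set (−3.48, −3.37 and −2.72 on the log2 scale) and a Col1a2 probe set (1.63, 2.18 and 0.41). Each of these is a difference between single arrays with no replicate, so it has no test.

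**Figure D4:**
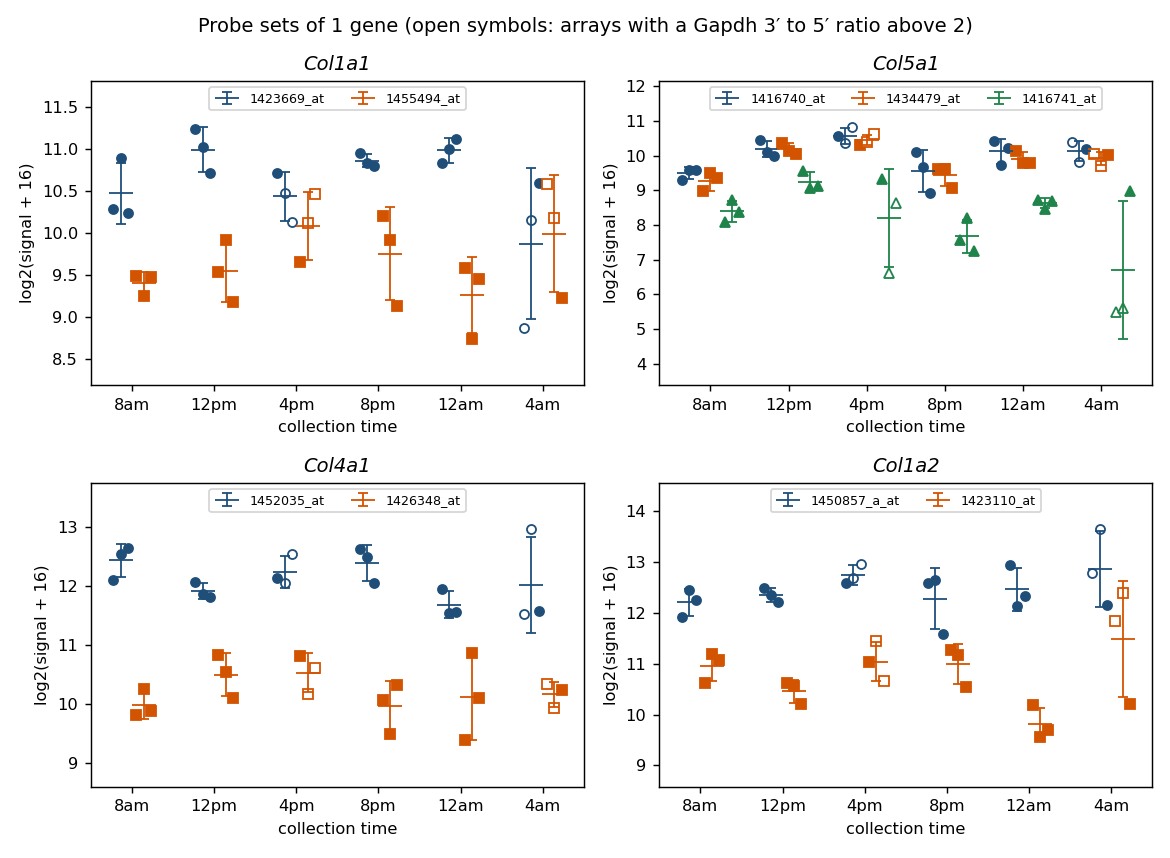
Log2(signal + 16) of each probe set of Col1a1, Col5a1, Col4a1 and Col1a2 in the 18 arrays, in order of collection time; open symbols mark arrays with a Gapdh 3′/5′ ratio above 2, and levels of different probe sets cannot be compared. The Col1a1 probe sets change order in 3 of the open symbols, 4am a, 4pm c and 4am b, and 1 Col5a1 probe set drops in those of 4pm b, 4am a and 4am b.

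Chains that assemble into 1 molecule or 1 fibril were compared across the 18 arrays in 7 pairs, with two-sided permutation p-values adjusted over the 7. Col6a1 and Col6a2 ran closely together: Pearson's r was 0.893 (permutation p 1e-05, the smallest that the permutations can give, adjusted 7e-05) and Spearman's rho 0.889 (permutation p 2e-05, adjusted 0.00014). Without the 2 arrays farthest from the median of Col6a1, r was 0.879. Among 12869 other genes, Col6a2 ranked 2 by r with Col6a1. After the time means were taken away, r was 0.864, so these chains varied together between arrays of the same time.

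Col6a3 gave lower values with both partners. With Col6a1 its r was 0.542 (permutation p 0.0211, adjusted 0.074), its rho 0.560 (permutation p 0.0175, adjusted 0.0613) and its r without the 2 farthest arrays 0.510. It ranked 600 among all genes by r with Col6a1. With Col6a2 r was 0.459 (permutation p 0.056, adjusted 0.131), rho 0.457 (permutation p 0.0582, adjusted 0.136) and r without the 2 farthest arrays 0.233. Neither pair passed after adjustment.

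Type I chains did not run together on these probe sets. Col1a1 and Col1a2 had an r of −0.313 (permutation p 0.190, adjusted 0.267), a rho of −0.278 (permutation p 0.261, adjusted 0.457) and an r of −0.220 without the 2 farthest arrays. For Col1a1 and Col3a1 r was −0.350 (permutation p 0.152, adjusted 0.266), rho −0.214 (permutation p 0.390, adjusted 0.476) and r without the 2 farthest arrays −0.118. The other Col1a1 probe set had an r of 0.705 with Col3a1, given as a description, so the sign depends on the probe set.

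The type IV chains Col4a1 and Col4a2 had an r of 0.0233 (permutation p 0.927, adjusted 0.927), a rho of 0.0423 (permutation p 0.869, adjusted 0.869) and an r of −0.0161 without the 2 farthest arrays. Around their time means r was 0.570, as a description over 18 arrays. Col5a1 and Col5a2 of type V had an r of 0.275 (permutation p 0.271, adjusted 0.317), a rho of 0.207 (permutation p 0.408, adjusted 0.476) and an r of 0.0468 without the 2 farthest arrays. Of the 7 pairs, Col6a1 and Col6a2 alone passed. Over all 378 pairs of tested collagens the median r was 0.24, with 271 positive. The highest r was 0.940, between Col1a2 and Col3a1, chosen after the values were seen, and it was 0.932 in the 15 arrays.

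**Figure D5:**
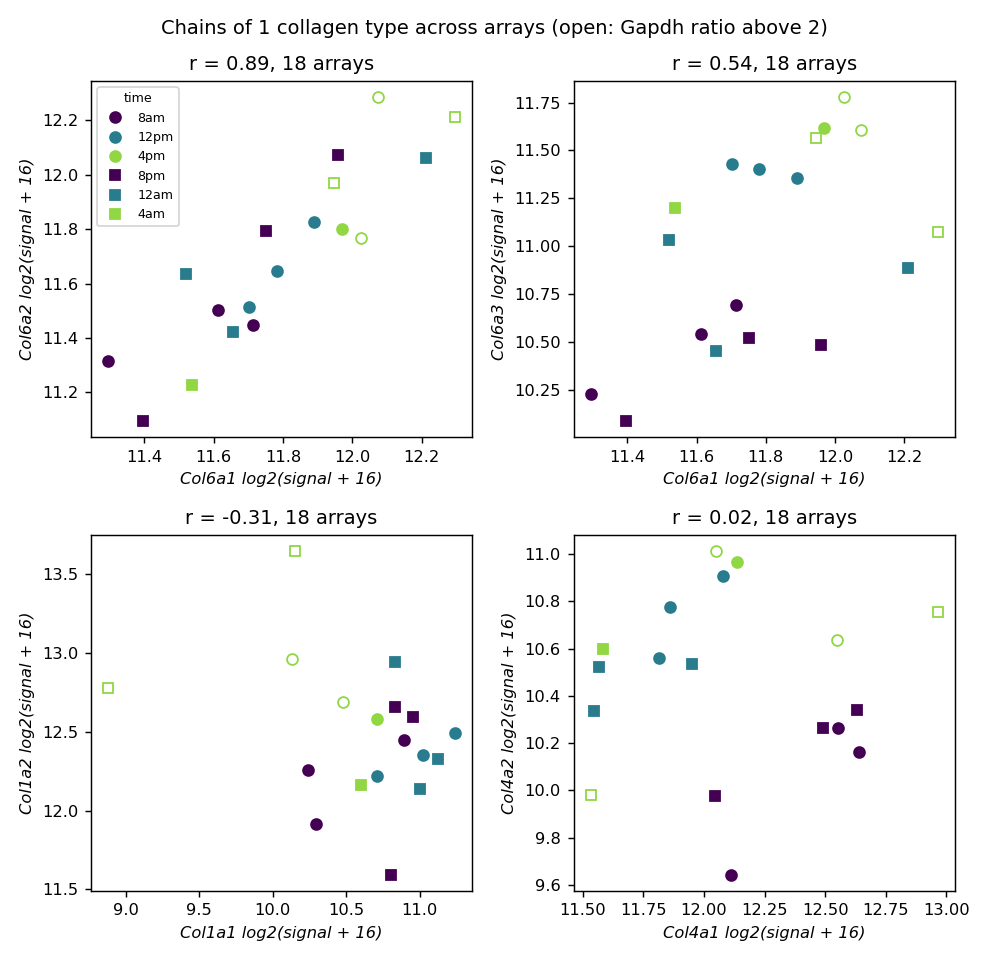
Log2(signal + 16) of 1 chain against another in the 18 arrays, for Col6a1 with Col6a2, Col6a1 with Col6a3, Col1a1 with Col1a2 and Col4a1 with Col4a2; colour and shape give the collection time and open symbols mark arrays with a Gapdh 3′/5′ ratio above 2. Points follow a line for Col6a1 and Col6a2 (r 0.893) and not for Col4a1 and Col4a2 (r 0.0233).

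Genes that build, bind and remove collagen were read at the same times. Of 7 tested collagen receptors, 4 were lower at 8am and 8pm and 0 higher, with a median log2 difference of −0.57. They include Itga1, the collagen-binding integrin chain (−0.57, limma adjusted p 0.0163), Ddr2, a kinase that fibrillar collagen activates (−0.65, limma adjusted p 0.00942), and Lair1, an inhibitory receptor of immune cells (−0.68, limma adjusted p 0.0141). Itga1 (0.73) and Ddr2 (0.52) were also the 2 called at 4pm and 4am, both higher. Without 4pm b, 4am a and 4am b they stood at 0.41 (limma adjusted p 0.129) and 0.23 (limma adjusted p 0.461).

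Genes of collagen synthesis and crosslinking moved both ways. Of 21 tested genes, 2 were higher and 2 lower at 8am and 8pm, with a median of 0.02. The higher ones were Ppib, a foldase of the collagen chain in the endoplasmic reticulum (0.95, limma adjusted p 0.00172), and P3h2, a prolyl hydroxylase (1.05, limma adjusted p 0.00584). The 4pm and 4am arrays had 3 higher and 5 lower. Lox, which crosslinks fibres, was higher (0.88, limma adjusted p 0.011), and Ppib was lower (−0.77, limma adjusted p 0.00836). Without the same 3 arrays Ppib alone of the 21 passed (−0.60, limma adjusted p 0.034), and Lox stood at 0.54 (limma adjusted p 0.268).

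Of 12 tested genes of collagen breakdown, 2 were lower at 8am and 8pm, the gelatinase Mmp2 (−0.40) and the inhibitor Timp1 (−0.77), and none was higher. At 4pm and 4am 1 was lower, the collagen uptake receptor Mrc2 (−0.73). Of 32 other matrix genes, 5 were lower at 8am and 8pm and 0 higher, with a median of −0.29. Sparc, a matrix protein that binds collagen (−1.13, limma adjusted p 0.00114), and Postn (−0.57) were among the lower ones. In the pair of 4pm and 4am 14 of the 32 were higher, among them Thbs2 (0.87) and Postn (0.79), and 3 were lower.

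In the Tgf-beta pathway, a main inducer of collagen genes, 2 of 16 tested genes were lower at 8am and 8pm, the ligand Tgfb2 (−0.79, limma adjusted p 0.00437) and the target Ccn2 (−0.66, limma adjusted p 0.0251). For 4pm and 4am 5 were higher, Ccn2 (0.71) among them, and 2 were lower. These lists were chosen with earlier results known, and their counts stand beside the 16.6% and 25.1% of all genes called at the same times. Without 4pm b, 4am a and 4am b, 0 of the 12 breakdown genes, 0 of the 32 matrix genes and 0 of the 16 Tgf-beta genes passed in limma at 4pm and 4am. Mrc2 then stood at −0.78, Thbs2 at 0.52, Postn at 0.56 and Ccn2 at 0.39.

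Genes whose levels most resembled the mean of the 7 tested fibrillar collagens over the 18 arrays were Htra1 (Pearson's r 0.859), Speg (0.842), Mef2c (0.821), Tnrc6a (0.818), Ssc5d (0.813), Pxdn (0.81), Sh3rf2 (0.800), Chst1 (0.797), Atp8b2 (0.789) and Stard9 (0.775). These values share the arrays and their scaling and are descriptions without a test. Within the fibrillar group itself, r with the mean was 0.717 for Col5a1, 0.704 for Col1a2, 0.689 for Col5a3, 0.637 for Col3a1, 0.554 for Col27a1 and 0.417 for Col5a2. Col1a1 stood apart at 0.0641.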

How the data were processed

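The 18 arrays measured total RNA of the distal colon of mice, 3 at each of 6 collection times. The authors made the deposited table with GCOS, the Affymetrix array software that the submitters' processing notes name without a version. Its values are intensities, 1 signal per probe set and array, and the deposited intensities share a trimmed mean of 500 in each array after removal of the lowest and highest 2%. Detection calls were not used here, so the depth behind each signal is not known and the number of arrays limits the precision. No pair of arrays held identical values.

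Of 45101 probe sets, 64 were Affymetrix controls. Of the others 34945 carried 1 gene symbol, 932 several and 9160 none in the platform annotation. Signals were taken as log2(signal + 16), a scale on which differences of dim genes are understated. For each gene, the probe set with the highest mean signal among those with 1 symbol stood for the gene. It was then kept if its mean log2 was at or above the 40th percentile of all probe sets that are no control (12870 genes). Of all such probe sets, with or without a symbol, 27022 reached that limit. Means of the 6 times and, separately, a 24 h cosine curve were fitted with limma 3.58.1 in R 4.3.3, using all 18 arrays and moderation with a trend. P-values are two-sided and were adjusted by Benjamini-Hochberg across the 12870 genes, with a threshold of 0.05. Chain pairs were tested with 100000 permutations of the arrays in Python 3.11.15 with numpy 2.4.6 and scipy 1.17.1. The fits were tested on simulated data.

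The members, lists and comparisons were chosen with earlier results of these data known. Values in every array are given for Col1a1, Col1a2, Col3a1, Col4a1, Col4a2, Col6a1, Col6a2 and Col6a3 and for up to 10 collagens of lowest adjusted p, other lists by up to 3 genes of lowest p over the 6 times, and likeness by the 10 genes of highest r. Further probe sets and other collagens are named after their values were seen. Alternatives changed the constant added, the scaling, the filter, the probe set, the moderation, array weights, RNA quality, the replicate letter and the arrays used. Protein sequences and probe positions were not used here.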

Additional observations from a re-analysis of the deposited data

How the results depend on the processing

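Over all alternatives, 393 counts and correlations stayed on their side of the threshold or within 1.5 times of the value reported, 24 rose past that, 27 fell below it and 6 changed sign. Of the values for single collagens, 515 stayed and 90 lost their call. At 8am and 8pm minus other times, 14 collagens passed with no filter and 5 with median centring. At 12pm and 12am minus other times, 2 passed with quantile normalization, 0 with the 60th percentile filter, 2 with every probe set tested, 2 without the 3 arrays of highest Gapdh ratio and 1 with the Gapdh covariate. At 4pm and 4am minus other times, 2 passed without those 3 arrays and 0 with the covariate, and the covariate gave 1 call at 4pm minus 4am. Over the 6 collection times 10 passed without those arrays. Array quality weights gave 22 over the 6 collection times, 4 for light minus dark, 1 for 8am minus 8pm, 1 for 12pm minus 12am, 3 for 4pm minus 4am, 14 at 8am and 8pm and 14 at 12pm and 12am. In an alternative chosen after seeing the data, without all 4 arrays of high ratio, 8 passed over the 6 times and 0 at 4pm and 4am. Counts of collagens in the alternatives, here and above, mostly stand without the share of all genes called in the same fit. Where that share is not given, they are not read as a result about collagens. Except where stated, the cause was not tested.

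With each array left out in turn, the count ran from 2 to 16 over the 6 collection times, 5 to 12 at 8am and 8pm, 1 to 14 at 12pm and 12am, 4 to 13 at 4pm and 4am, 0 to 5 for 4pm minus 4am and 0 to 1 for light minus dark, and stayed at 0 for the 24 h curve, 8am minus 8pm and 12pm minus 12am. The correlation of Col4a1 and Col4a2 ran from −0.0942 to 0.0889 (−0.00642 without 4pm c, −0.00374 without 12am b, −0.0942 without 4am a, −0.0869 without 4am b), that of Col6a1 and Col6a3 from 0.454 to 0.609 and that of Col6a2 and Col6a3 from 0.330 to 0.564. Without the 3 arrays of highest ratio, the correlation of Col1a1 and Col3a1 was 0.0624 and that of Col4a1 and Col4a2 −0.228. The correlation of Col6a1 and Col6a3 was 0.659 with quantile normalization and 0.612 with median centring, and that of Col6a2 and Col6a3 was 0.545 and 0.553.

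With the replicate letter as a replicate block, 3 collagens passed over the 6 collection times, 10 at 8am and 8pm, 4 at 12pm and 12am, 8 at 4pm and 4am and 0 in the other comparisons. Deviations from time means of arrays with the same letter had a mean r of −0.0112 and those with different letters 0.00549, so the letters were not taken to pair the arrays.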
